A study of Mus musculus with 18 samples.

Results

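The IL-6 and IL-12 families of cytokines and receptors were followed here through 10 genes, *Il6*, *Il6ra*, *Il6st*, *Lif*, *Osm*, *Il12a*, *Il12b*, *Il23a*, *Il27* and *Ebi3*. They were found by matching the Ensembl identifiers of the count files to gene symbols, and are 10 of the 54232 genes listed in all 18 libraries. The RNA came from eosinophils of the peritoneal cavity of C57BL/6 mice of the NJ.1638 line, which carries an *Il5* transgene, from which cells binding antibodies to Thy1.2 or B220 had been removed. The cells were kept for 18 h in medium alone (unstimulated), with heat-inactivated *E. coli*, with IFN-γ (50 ng/ml), with IFN-γ and *E. coli* together, or with IL-4 (100 ng/ml), and the age of the mice was not given in the sources used here. Each stimulus had 3 libraries and unstimulated cells had 6. By the layout of their files they form 2 sets. Unstimulated libraries a to c with *E. coli*, IFN-γ and both stimuli make up a set of 12 libraries, and unstimulated libraries d to f with IL-4 a set of 6. The paper calls the libraries of a group biological replicates. The labels do not say whether these came from separate animals or cultures, so p-values measure only the spread between these samples.

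Each of the 12 libraries held 1523808 to 2734041 counts on genes, and each of the 6 libraries 3625036 to 6482289. Levels are CPM, counts scaled to a common library total, after TMM normalization. The floor of 3 counts in a library was 1.10 to 1.97 CPM before that normalization among the 12 libraries and 0.463 to 0.828 CPM among the 6, and floors and count intervals cover counting error only. The highest count of any gene was 4095 among the 12 libraries and 191131 among the 6. The 10 genes reached at most 1035 in the 12-library set. Reads may have been counted in 1 set and molecules in the other, so levels of the 10 genes were compared within a set. The exceptions were unstimulated *Ebi3* and the alternative in which all 6 unstimulated libraries were taken as 1 group. None of the 10 was ranked against another gene by level.

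IL-6, LIF and oncostatin M (encoded by *Osm*) are secreted ligands whose receptors share the signalling chain encoded by *Il6st*, and IL-6 first binds the receptor encoded by *Il6ra*. Ligand binding activates Janus kinases and STAT proteins, mainly STAT3, and SOCS3 limits the signal. The IL-12 family is made of paired subunits. IL-12 joins the products of *Il12a* and *Il12b*, IL-23 those of *Il23a* and *Il12b*, and IL-27 those of *Il27* and *Ebi3*, so an active cytokine needs both of its chains. In myeloid cells these genes are known to respond to bacterial products, and IFN-γ is known to favour IL-12 and IL-27.

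Of the 10 genes, 6 had enough counts to be tested in each set. In the 12-library set these were *Il6*, *Il6ra*, *Osm*, *Il12b*, *Il27* and *Ebi3*, and *Il12b* passed the filter on low counts through the IFN-γ groups in which it was high. In the 6-library set *Il6st* was tested and *Il12b* was not. Genes past an adjusted p of 0.05 in the quasi-likelihood test of edgeR, adjusted by Benjamini-Hochberg over all genes tested, were called higher or lower. With *E. coli* alone, 4 of the 6 genes were called higher, *Il6*, *Osm*, *Il27* and *Ebi3*, where 13.5% of all 9883 genes tested were higher and 16.7% lower. *Il12b*, which had to differ to be tested, is left out of the counts for IFN-γ that follow. With IFN-γ alone 2 of the other 5 were called higher, *Il6* and *Il27*, against 15.6% of all genes higher and 16.0% lower. With both stimuli 4 of the 5 were called higher, all but *Il6ra*, against 23.9% higher and 25.2% lower. These comparisons share unstimulated libraries a to c, so their errors are shared too. With IL-4, 2 of the 6 were called higher, *Il6* and *Il6st*, against 5.97% of 10556 genes higher and 4.35% lower.

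Without *Il12b*, the median log2 fold change of the tested genes was 1.75 for both stimuli, 0.73 for *E. coli* alone and 0.42 for IFN-γ alone, and that of the 6 tested with IL-4 was 0.56. The median of all genes tested was -0.04, -0.02, -0.03 and 0.00 in the same order. With *Il12b* at its fitted value the medians of the 12-library set were 1.89, 0.87 and 0.72. None of the 6 tested in a set was called lower in any of these comparisons by edgeR's quasi-likelihood test or by DESeq2, and 0 were lower at an unadjusted p under 0.05. Since whole samples were measured, fewer cells of a type and less RNA per cell cannot be told apart.

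**Figure D1:**
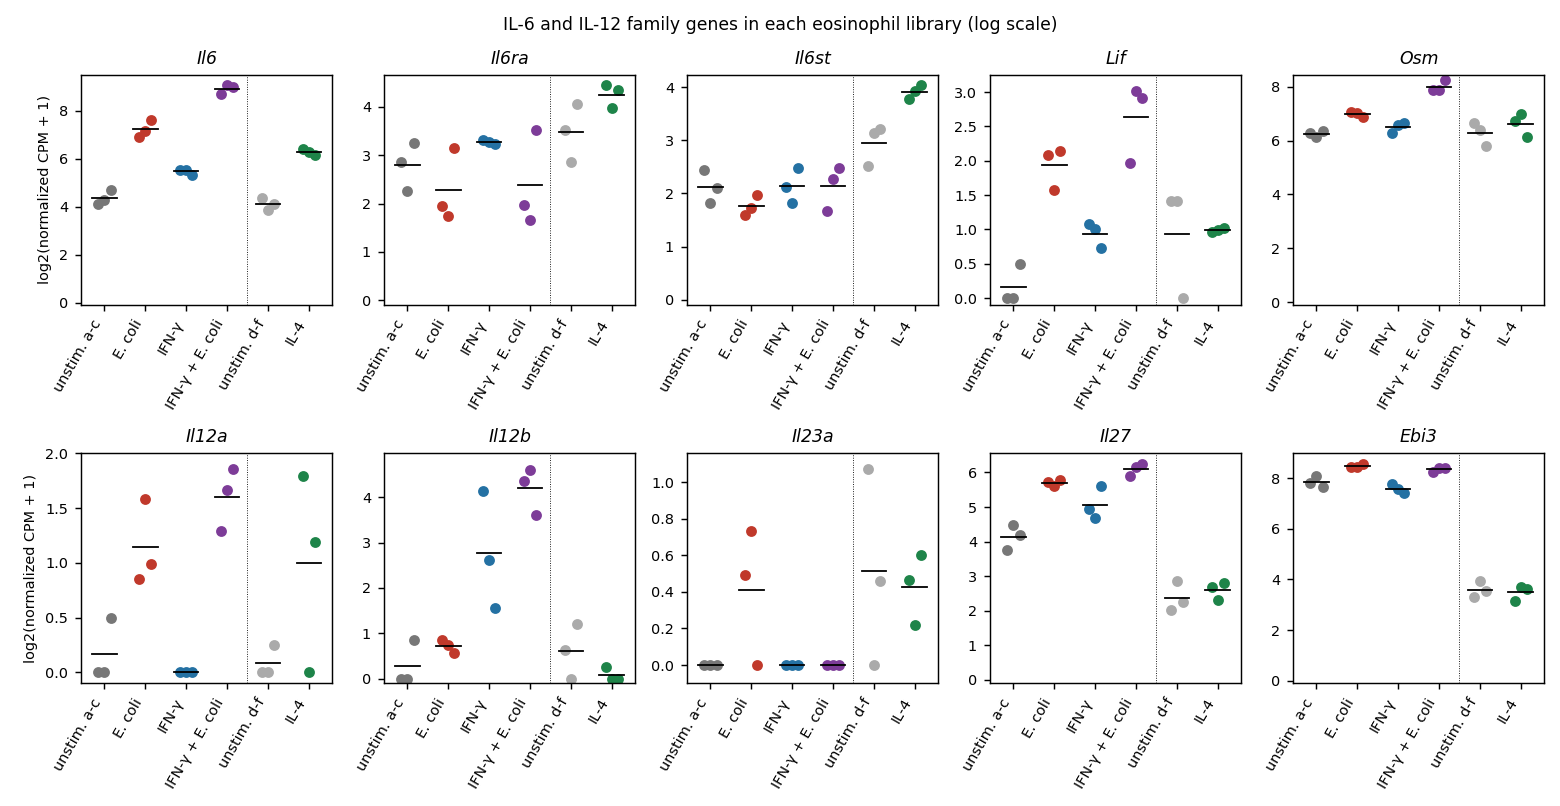
Level of each gene in each library as log2(normalized CPM + 1), a log scale that differs between panels. Points are libraries, black lines are means of these log values over 3 libraries, and the dotted line parts the library sets. *Il6* was highest with both stimuli, at 410.0, 545 and 509.7 CPM, and *Il12b* was above 3 counts in every library only with both stimuli.

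*Il6* (ENSMUSG00000025746, chromosome 5, 30013114 to 30019981), the gene of the founding ligand of the first family, was at 16.2, 18.2 and 24.6 CPM in unstimulated libraries a to c. With *E. coli* it was at 120.0, 139.8 and 197 CPM, with IFN-γ at 45.6, 45.8 and 39.0 CPM and with both stimuli at 410.0, 545 and 509.7 CPM. The groups were ordered unstimulated, IFN-γ, *E. coli* and both, and no library of a group reached the range of the next. *Il6* rose by 2.94 (log2) with *E. coli* (standard error 0.20, adjusted p = 3.76e-09), 1.14 with IFN-γ (standard error 0.23, adjusted p = 7.75e-04) and 4.62 with both (standard error 0.20, adjusted p = 1.63e-12). Mean levels were 19.7 ± 4.35, 152 ± 40.1, 43.5 ± 3.86 and 488 ± 69.9 CPM (SD, n = 3) in the order unstimulated, *E. coli*, IFN-γ and both.

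Both stimuli together gave more *Il6* than either alone. The log2 difference was 3.48 against IFN-γ (standard error 0.18, adjusted p = 3.00e-10) and 1.69 against *E. coli* (standard error 0.16, adjusted p = 1.22e-07). The joint log2 fold change differed from the sum of the separate ones by 0.55 (standard error 0.28), which did not pass the test of the interaction (adjusted p = 0.336). Against IFN-γ alone, 4 of the 6 tested genes were called higher with both stimuli, *Il6*, *Osm*, *Il27* and *Ebi3*, against 6.25% of all genes higher and 5.98% lower. Against *E. coli* alone, 2 of the 5 other than *Il12b* were called higher, *Il6* and *Osm*, against 17.5% higher and 15.3% lower. Neither comparison called any of the 6 lower, by edgeR's quasi-likelihood test or by DESeq2, with 0 at an unadjusted p under 0.05 too.

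IL-4 raised *Il6* as well. The gene was at 19.4, 13.4 and 16.5 CPM in unstimulated libraries d to f and at 82.9, 76.7 and 71.2 CPM with IL-4. All IL-4 libraries lay above all unstimulated ones, and the means were 16.4 ± 2.99 and 77.0 ± 5.85 CPM (SD, n = 3), a rise of 2.24 in log2 (standard error 0.17, adjusted p = 7.66e-05). The call held with each library left out in turn, with log2 fold changes of 2.11 to 2.36.

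Genes whose levels followed *Il6* most closely over the 12 libraries of the 12-library set, among 7908 genes with a mean of at least 10 CPM, were *Il1a*, *Cxcl2* and *Il1b*, with Pearson correlations of log2 CPM of 0.988, 0.987 and 0.985. *Il1a* and *Il1b* encode the inflammatory cytokines IL-1α and IL-1β, and *Cxcl2* a chemokine that attracts neutrophils. The libraries of a group share their stimulus, and genes that rise with it will score high on this measure.

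*Osm* (ENSMUSG00000058755, chromosome 11, 4236420 to 4241026) encodes oncostatin M, another ligand that signals through the *Il6st* chain. It was at 76.7, 68.6 and 81.5 CPM in cells left unstimulated, 133, 129 and 116 CPM with *E. coli*, 75.7, 93.7 and 99.5 CPM with IFN-γ and 231, 235 and 304 CPM with both. Libraries with *E. coli* lay above all unstimulated ones, those with both lay above all others, and those with IFN-γ overlapped the unstimulated range. The log2 fold change was 0.73 with *E. coli* (standard error 0.13, adjusted p = 4.14e-04) and 1.75 with both (standard error 0.13, adjusted p = 4.18e-09). IFN-γ alone gave 0.23 (standard error 0.14, adjusted p = 0.227), which was not called.

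*Osm* was the 1 gene of the 6 tested for which the interaction of IFN-γ and *E. coli* was called, where 4.62% of all genes were called in either direction. With both stimuli its level exceeded the sum of the separate log2 effects by 0.79 (standard error 0.19, adjusted p = 0.0203 in edgeR's quasi-likelihood test). The call was lost without unstimulated library a (0.78, adjusted p = 0.0596) or c (0.73, 0.0586), without *E. coli* library 2 (0.80, 0.0523), and without IFN-γ library 1 (0.67, 0.0705) or 2 (0.80, 0.0516). Over all alternatives the adjusted p ranged from 0.0153 to 0.0705. *Osm* in the 6-library set was at 100.4, 81.9 and 55.0 CPM without stimulus and 106, 125 and 69.7 CPM with IL-4, and the overlapping groups did not pass the test (log2 fold change 0.35 with a standard error of 0.24, adjusted p = 0.408). The genes most like *Osm* over the 12 libraries were *Aldh1a2*, which encodes an enzyme of retinoic acid synthesis, *Cxcl2* and *Il6*, with correlations of 0.961, 0.958 and 0.944.

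*Lif* (ENSMUSG00000034394, chromosome 11, 4257557 to 4272514), the gene of leukemia inhibitory factor, is a neighbour of *Osm* on chromosome 11 and was too low to be tested. Its raw counts were 0, 0 and 1 in unstimulated libraries a to c, 8, 6 and 7 with *E. coli*, 2, 2 and 1 with IFN-γ and 4, 13 and 10 with both stimuli. Every library with *E. coli*, alone or with IFN-γ, held more than 3 counts, and no library without *E. coli* in this set did. Summed over the 3 libraries and scaled to their totals, the ratio to unstimulated cells was 18.8 (95% interval 3.03 to 779) with *E. coli* and 38.4 (95% interval 6.33 to 1573) with both. When the filter on low counts was left out, the adjusted p of *Lif* in edgeR's quasi-likelihood test was 7.65e-04 with *E. coli*, 6.59e-07 with both and 0.259 with IFN-γ. Counts of *Lif* were 6, 10 and 0 in libraries d to f and 5, 6 and 4 with IL-4, which overlap.

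Among the receptor chains, *Il6ra* (ENSMUSG00000027947, chromosome 3, 89864059 to 89913196) encodes the chain that binds IL-6. It was at 6.27, 3.77 and 8.60 CPM in cells left unstimulated, 2.84, 2.32 and 7.84 CPM with *E. coli*, 8.90, 8.66 and 8.46 CPM with IFN-γ and 2.90, 2.18 and 10.5 CPM with both. The range of each stimulated group overlapped the unstimulated one, while the IFN-γ libraries all lay above those with *E. coli*, a difference with no test of its own here, and library 3 was the highest with *E. coli* and with both stimuli. The log2 fold changes of -0.66, 0.42 and -0.34 with *E. coli*, IFN-γ and both had standard errors of 0.50, 0.46 and 0.52 and did not pass the test (adjusted p = 0.349, 0.528 and 0.619). Between both stimuli and IFN-γ the difference was -0.76 (adjusted p = 0.401). Without library 3 of both stimuli it was -1.78 (adjusted p = 0.0493), and over all alternatives the adjusted p ranged from 0.0493 to 0.788. Libraries d to f held *Il6ra* at 10.5, 6.28 and 15.6 CPM and, with IL-4, 20.8, 14.7 and 19.4 CPM. These groups overlapped, and the difference was not called (log2 fold change 0.76 with a standard error of 0.31, adjusted p = 0.156).

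*Il6st* (ENSMUSG00000021756, chromosome 13, 112464070 to 112510086) encodes the chain through which IL-6, LIF and oncostatin M signal. In the 12-library set it had 12, 4 and 8 counts without stimulus, 5, 7 and 6 with *E. coli*, 6, 5 and 7 with IFN-γ and 3, 7 and 7 with both. All groups overlapped the unstimulated one at this depth, and the gene was not tested. In unstimulated libraries d to f it was at 4.70, 7.76 and 8.27 CPM, and with IL-4 at 12.7, 14.2 and 15.5 CPM. The IL-4 libraries all lay above the unstimulated ones, and *Il6st* was called higher (means 6.91 ± 1.93 and 14.1 ± 1.40 CPM, SD, n = 3, with a log2 fold change of 1.00, a standard error of 0.26 and an adjusted p = 0.0357). The call was lost without unstimulated library d (adjusted p = 0.0631) or f (0.0529) and without IL-4 library 1 (0.0909), 2 (0.128) or 3 (0.126). The log2 fold change was 0.81 to 1.13 over the libraries left out, and the adjusted p 0.00702 to 0.128 over all alternatives.

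**Figure D2:**
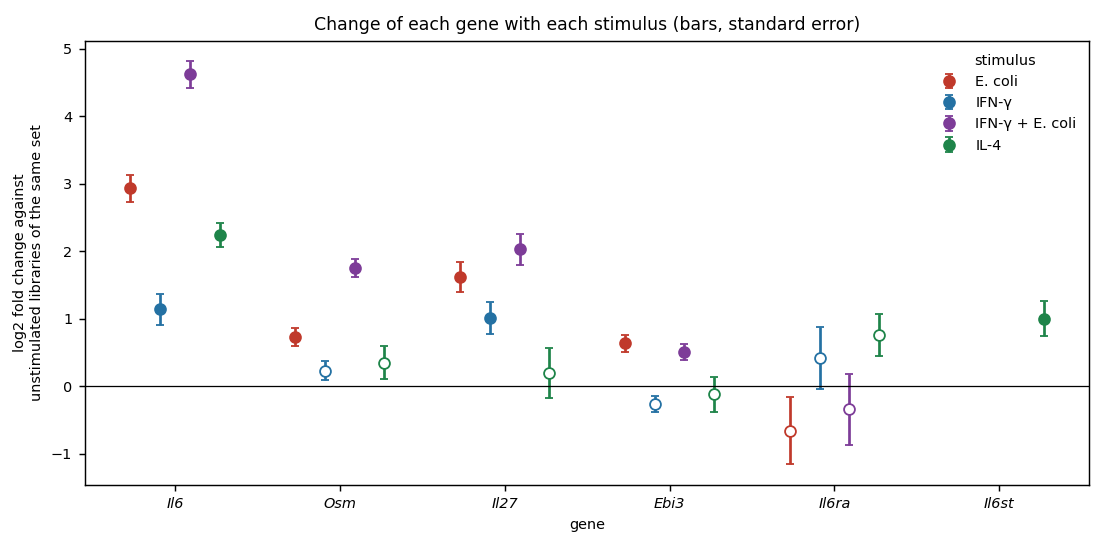
Log2 fold change of 6 genes with each stimulus against unstimulated libraries of the same set, with the standard error, derived from the test statistic, as bars. Filled points passed the test at an adjusted p under 0.05 and open points did not, and *Il6st* was tested only with IL-4. *Il6* rose with all 4 stimuli, by 4.62 with IFN-γ and *E. coli* and by 2.24 with IL-4.

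*Il12b* (ENSMUSG00000004296, chromosome 11, 44400063 to 44414033) encodes the subunit that IL-12 and IL-23 share. Its raw counts were 0, 0 and 2 in unstimulated libraries a to c, 2, 2 and 1 with *E. coli*, and then 30, 10 and 3 with IFN-γ and 27, 43 and 17 with both stimuli. All libraries of this set without IFN-γ were at or under 3 counts, and the libraries with IFN-γ alone were spread from 3 to 30 counts. The ratio to unstimulated cells of the summed counts, scaled to the totals, was 27.4 (95% interval 7.13 to 233) with IFN-γ and 61.9 (95% interval 16.6 to 519) with both. The quasi-likelihood test of edgeR called *Il12b* higher with IFN-γ, with both stimuli against no stimulus and with both against *E. coli* alone. The gene passed the filter on low counts through the IFN-γ groups in which it was high, so these calls are given as a description only. With both against *E. coli* the ratio was 27.6 (95% interval 11.4 to 87.1). No fold is given for *E. coli* against no stimulus, where both groups were at or under the floor.

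IFN-γ library 1 held 30 of the 43 *Il12b* counts of its group. Without it the fit again gave a higher call with IFN-γ, which for the same reason is a description only and no test of stability. Fitted log2 fold changes of so low a gene depend on the prior count, and leaving out a library moved that with IFN-γ over 3.39 to 7.01 (lowest without IFN-γ library 1, highest without unstimulated library c) and that with both over 5.03 to 8.18 (lowest without unstimulated library a, highest without c). Both stimuli against IFN-γ alone gave a log2 difference of 1.17 (standard error 0.47, adjusted p = 0.118), which was not called. That comparison was called without IFN-γ library 1 (2.29, adjusted p = 0.00801) and when no filter on low counts was used (adjusted p = 0.0171). It was also called with replicate numbers as a block on the 6 libraries compared (1.26, adjusted p = 0.0255). The adjusted p ranged from 0.00801 to 0.383 over alternatives. Counts of *Il12b* were 2, 0 and 7 in libraries d to f and 1, 0 and 0 with IL-4, where it was not tested. The genes most like *Il12b* over the 12 libraries were *Pef1*, *Kdm6b* and *Pabpc1* (correlations of 0.947, 0.939 and 0.939). *Kdm6b* encodes a histone demethylase and *Pabpc1* a protein that binds the poly(A) tail of mRNA.

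The partners of the shared subunit were near the limit of detection. *Il12a* (ENSMUSG00000027776, chromosome 3, 68690644 to 68698547), which completes IL-12, had 0, 0 and 1 counts without stimulus, 2, 6 and 2 with *E. coli*, 0, 0 and 0 with IFN-γ and 2, 4 and 4 with both. Counts were seen in every library with *E. coli*, alone or with IFN-γ, and in no library with IFN-γ alone. With both stimuli the ratio to unstimulated cells was 14.2 (95% interval 2.02 to 617), and with *E. coli* 8.97 (95% interval 1.28 to 389). With no filter on low counts the adjusted p of *Il12a* in edgeR's quasi-likelihood test was 0.0205 with both stimuli, 0.117 with *E. coli* and 0.0258 for both against IFN-γ alone. Counts in the 6-library set were 0, 0 and 1 without stimulus and 13, 0 and 5 with IL-4, and the groups overlapped, with 13 of 18 counts in IL-4 library 1 (adjusted p = 0.0810 without the filter).

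*Il23a* (ENSMUSG00000025383, chromosome 10, 128296139 to 128298752), which completes IL-23, had 0, 0 and 0 counts in unstimulated libraries a to c, 1, 2 and 0 with *E. coli*, and 0 in every library with IFN-γ or with both stimuli. It had 4, 0 and 2 counts in unstimulated libraries d to f and 2, 1 and 2 with IL-4. At this depth no difference in *Il23a* was detectable. *Il12a* and *Il12b* were both above 0 in all 3 libraries with both stimuli and in all 3 with *E. coli* alone, where *Il12b* was at 1 or 2 counts, and with IFN-γ alone *Il12b* was present while *Il12a* was at 0.

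*Il27* (ENSMUSG00000044701, chromosome 7, 126589010 to 126594941) encodes the subunit that is particular to IL-27. It was at 12.5, 21.4 and 17.2 CPM in cells left unstimulated, 51.5, 47.5 and 54.4 CPM with *E. coli*, 29.5, 24.4 and 48.1 CPM with IFN-γ and 58.8, 70.2 and 74.1 CPM with both. Every stimulated group lay above the unstimulated libraries. Libraries with both lay above those with either stimulus, whereas library 3 with IFN-γ fell within the *E. coli* range. The log2 fold change was 1.62 with *E. coli* (standard error 0.22, adjusted p = 1.82e-05), 1.01 with IFN-γ (standard error 0.24, adjusted p = 0.00333) and 2.03 with both (standard error 0.22, adjusted p = 5.02e-07).

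Both stimuli raised *Il27* beyond IFN-γ alone by 1.02 (log2; standard error 0.21, adjusted p = 0.00307). Beyond *E. coli* alone a difference of 0.41 (standard error 0.19) did not pass the test (adjusted p = 0.108), although the libraries did not overlap. The interaction was -0.60 (standard error 0.31, adjusted p = 0.341). With IL-4, *Il27* was at 5.49, 3.97 and 5.94 CPM against 3.04, 6.28 and 3.76 CPM without, within the same range (log2 fold change 0.19 with a standard error of 0.37, adjusted p = 0.788). Exons of *Il27* overlap those of *Apobr* on the opposite strand, and whether counting used the strand is not stated, so reads of the pair cannot be told apart. *Apobr* was at 394, 399.5 and 374 CPM unstimulated, 423, 391 and 397 CPM with *E. coli*, 243, 266 and 249 CPM with IFN-γ and 276, 244 and 194 CPM with both, lower in every library with IFN-γ than in any without it. The genes most like *Il27* were *Gabpb1*, *Btg3* and *Srrt* (correlations of 0.976, 0.964 and 0.964).

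*Ebi3* (ENSMUSG00000003206, chromosome 17, 55952640 to 55957022) encodes the partner of the *Il27* product in IL-27. It was at 221, 269 and 199.8 CPM in cells left unstimulated, 349, 344 and 377 CPM with *E. coli*, 216, 188 and 170.5 CPM with IFN-γ and 303, 338 and 339.8 CPM with both. Libraries with *E. coli*, alone or with IFN-γ, lay above all others, and those with IFN-γ alone overlapped the unstimulated ones. *Ebi3* was called higher with *E. coli* (log2 fold change 0.64 with a standard error of 0.12, adjusted p = 4.97e-04) and with both (log2 fold change 0.51 with a standard error of 0.12, adjusted p = 0.00181). With IFN-γ alone *Ebi3* was not called (log2 fold change -0.26, adjusted p = 0.121). Both stimuli gave 0.77 more than IFN-γ (standard error 0.12, adjusted p = 3.28e-04) and -0.12 against *E. coli* (adjusted p = 0.463). The latter did not pass the test, although every library with both lay below every one with *E. coli* alone.

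In the 6-library set *Ebi3* was at 8.85, 14.2 and 10.5 CPM without stimulus and 7.95, 11.9 and 11.4 CPM with IL-4, which overlap (log2 fold change -0.12 with a standard error of 0.27, adjusted p = 0.818). The unstimulated libraries of the sets had *Ebi3* means of 229.8 ± 35.3 CPM in a to c and 11.2 ± 2.74 CPM in d to f (SD, n = 3), a gap for which set and unit cannot be told apart. When all 6 unstimulated libraries were taken as 1 group, *Ebi3* was no longer called with *E. coli* (adjusted p = 0.189) or with both (adjusted p = 0.164), nor was *Osm* with *E. coli* (adjusted p = 0.106). Over all alternatives these adjusted p-values ranged from 3.14e-06 to 0.189, 2.07e-04 to 0.164 and 1.49e-06 to 0.106. Exons of *Ebi3* overlap *Gm16712* on the opposite strand, which had at most 8 counts in any library. *Gm42809*, opposite *Il6ra*, had 0 in all. The genes most like *Ebi3* over the 12 libraries were *Cish*, which encodes an inhibitor of cytokine signalling, *Txnl4a* and *Cyp1b1* (correlations of 0.956, 0.948 and 0.948).

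The response to IL-4 was set against each other response in a fit of all 18 libraries, in which the unstimulated libraries of each set were a group of their own. Against the response to *E. coli*, 3 of the 7 genes tested there were called, where 28.1% of all 10671 genes were called in either direction. *Il6st* was higher, by 1.53 (log2, standard error 0.48, adjusted p = 0.0212), and *Il27* (-1.47, adjusted p = 0.00829) and *Ebi3* (-0.79, adjusted p = 0.0172) were lower. *Il6st* was too low to be tested in the set with *E. coli* and entered this fit through the set with IL-4. Its call, 1 of these 3, is therefore given as a description only. The *Il6* response to IL-4 minus that to *E. coli* was -0.71 (standard error 0.28), outside the threshold (adjusted p = 0.0619, range over alternatives 0.0247 to 0.198). It was called without unstimulated library c (-0.92, adjusted p = 0.0273) or e (-0.84, 0.0302) and without *E. coli* library 1 (-0.86, 0.0247). With all libraries it was also called by DESeq2 (-0.74, 0.0484), with no filter on low counts (-0.72, 0.0390) and with counts converted for identifier collisions (-0.77, 0.0481).

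The calls against the *E. coli* response were not held by all alternatives. That of *Il6st* was lost by DESeq2 (adjusted p = 0.0545), with no filter on low counts (0.0865), without unstimulated library a (1.29, adjusted p = 0.108) and without *E. coli* library 1 (1.42, 0.0588) or 2 (adjusted p = 0.0524). That of *Il27* was lost without unstimulated library e (-1.10, adjusted p = 0.0658), and that of *Ebi3* without unstimulated library e (-0.57, 0.0925) or IL-4 library 1 (-0.63, 0.0677). Library e stood apart from its group, with a chi-square per gene between libraries of 23.7 against d and 22.0 against f. Between d and f it was 7.86. Of the single libraries left out, library e gave the most calls with IL-4 over all genes, 812 higher and 582 lower. The adjusted p over all alternatives ranged from 0.0177 to 0.108 for *Il6st*, 0.00100 to 0.0658 for *Il27* and 0.00679 to 0.0925 for *Ebi3*. *Il6ra*, at 1.40 (adjusted p = 0.101, range 0.0245 to 0.278), was called higher with no filter on low counts (1.38, 0.0366) and without *E. coli* library 3 (2.06, 0.0245) or unstimulated library f (1.79, 0.0369).

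Against the response to IFN-γ, 1 of the 6 tested genes other than *Il12b* was called, beside 27.8% of all genes. *Il6* rose further with IL-4, by 1.08 (log2, standard error 0.29; adjusted p = 0.00837), and the call was lost without unstimulated library c (0.86, adjusted p = 0.0504; range over alternatives 7.23e-04 to 0.0504). *Il12b*, with 9 counts in unstimulated libraries d to f and 1 with IL-4, entered this fit through the IFN-γ groups in which it was high, so its lower call here (lost without unstimulated library f) and against both stimuli is given as a description only. Against the response to both stimuli, 4 of these 6 were called, beside 39.2% of all genes. All 4 were lower with IL-4, *Il6* at -2.43 (standard error 0.27, adjusted p = 4.12e-07), *Osm* at -1.45 (standard error 0.28, adjusted p = 2.80e-04), *Il27* at -1.92 (standard error 0.40, adjusted p = 6.30e-04) and *Ebi3* at -0.71 (standard error 0.24, adjusted p = 0.0239). The *Ebi3* call was lost without unstimulated library c (-0.62, adjusted p = 0.0556) or e (-0.49, 0.126) and without IL-4 library 1 (-0.54, 0.0914), and with at least 10 counts required in every library (-0.54, 0.0656), with a range of 0.00951 to 0.126 over alternatives. *Il6ra*, at 1.04 (adjusted p = 0.213, range 0.0259 to 0.495), was called higher without library 3 of both stimuli (2.08, 0.0259). These 3 comparisons share unstimulated libraries d to f and the IL-4 libraries, and in each of them stimulus and set cannot be told apart.

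Beside the counts of called genes in the lists and cell type markers that follow, 13.5% of all genes were called higher and 16.7% lower with *E. coli*. The shares were 15.6% and 16.0% with IFN-γ, 23.9% and 25.2% with both, and 5.97% and 4.35% with IL-4. The other ligands of the IL-6 family were sparse. Of 7 genes, *Il11*, *Clcf1* and *Ctf2* were tested in the 12-library set and *Clcf1* alone with IL-4. None was called in either direction with any stimulus, by edgeR's quasi-likelihood test or by DESeq2, and at an unadjusted p under 0.05 there was 1 higher with *E. coli* and 1 lower with IL-4. Both were *Clcf1*, at 0.69 and -0.73 on the log2 scale. *Cntf* and *Il31* had 0 counts in all libraries. Exons of *Cntf* overlap *Zfp91* on the same strand, and how the counting treated reads that they share was not tested.

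Of 9 further receptor chains, 4 were tested in the 12-library set, and without *Il12rb1* the medians were 0.44, -0.074 and -0.71 with *E. coli*, IFN-γ and both. *Lifr*, the chain that pairs with *Il6st* to bind LIF, was at 36.5, 31.5 and 28.2 CPM in cells left unstimulated, 21.9, 16.6 and 11.3 CPM with *E. coli*, 7.23, 11.7 and 9.11 CPM with IFN-γ and 10.9, 10.3 and 5.25 CPM with both. It was called lower with *E. coli* (-0.94, adjusted p = 0.00460), with IFN-γ (-1.77, adjusted p = 5.87e-05) and with both (-1.86, adjusted p = 2.41e-05), and with IL-4 the log2 fold change was 0.11 (adjusted p = 0.732). Every stimulated library of that set lay below every unstimulated one. *Il12rb1*, the receptor chain common to IL-12 and IL-23, had 0, 0 and 1 counts without stimulus, 1, 1 and 2 with *E. coli*, 15, 4 and 10 with IFN-γ and 5, 10 and 8 with both. It was above 3 counts in all libraries with IFN-γ and in none without. The count ratio to unstimulated cells was 36.9 (95% interval 6.12 to 1508) with IFN-γ and 32.7 (95% interval 5.31 to 1348) with both. As it passed the filter through the groups in which it was high, its higher calls with IFN-γ and with both are given as a description only. Neither call was made with only the 6 libraries compared or with counts converted for identifier collisions. *Il27ra* (-0.71 with both, adjusted p = 0.174) and *Il11ra1* were not called with any stimulus. With IL-4, 3 of the 9 were tested (median 0.11) and 0 called by either tool, also at an unadjusted p under 0.05.

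Of 11 genes of JAK and STAT signalling, all tested, 5 were called higher and 3 lower with *E. coli* (median 0.11), 4 and 1 with IFN-γ (0.14), 6 and 1 with both (0.36) and 4 and 0 with IL-4 (0.32; DESeq2 called 0 lower too, with 0 at an unadjusted p under 0.05). The 3 lower with *E. coli* became 1 by DESeq2, with no filter on low counts, with all 6 unstimulated libraries as 1 group, and without unstimulated library a or b or *E. coli* library 2 or 3. *Socs3*, the feedback inhibitor of signals through the *Il6st* chain, was at 41.3, 44.0 and 53.2 CPM in cells left unstimulated, 141, 151 and 269 CPM with *E. coli*, 73.4, 66.2 and 67.7 CPM with IFN-γ and 168, 232 and 289 CPM with both. It was called higher with *E. coli* (2.00, adjusted p = 2.00e-06), with both (2.31, adjusted p = 1.22e-07) and with IL-4 (1.32, adjusted p = 2.37e-04), and with IFN-γ the log2 fold change of 0.57 was not called (adjusted p = 0.0814). *Stat3*, whose exons overlap *Stat5a* on the opposite strand, was higher with *E. coli* (0.41, adjusted p = 0.0104), IFN-γ (1.27, adjusted p = 1.22e-07) and both (1.46, adjusted p = 6.91e-09). With IFN-γ the largest rise was that of *Socs1* (1.34, adjusted p = 1.50e-07) and the 1 fall that of *Stat4* (-1.16, adjusted p = 0.0136). No gene of the list was called lower with IFN-γ without unstimulated library b or IFN-γ library 2 or 3, or with all 6 unstimulated libraries as 1 group, and 2 were without IFN-γ library 1 or with only the 6 libraries compared. *Tyk2*, a kinase of the IL-12 receptor, was lower with both (-0.66, adjusted p = 0.00461) except with all 6 unstimulated libraries as 1 group, and *Socs1* had the largest rise with IL-4 (1.52, adjusted p = 9.61e-05).

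Of 10 genes known to respond to STAT3, 9 were tested in the 12-library set, and *Socs3* and *Cebpd* also belong to other lists here. With *E. coli* 4 were called higher and 2 lower (median 0.30), with IFN-γ 3 and 1 (0.47; DESeq2 called 0 lower) and with both 6 and 1 (0.51). *Bcl3* rose most with *E. coli* (2.03, adjusted p = 4.87e-08) and *Bcl6* fell most (-1.81, adjusted p = 1.63e-04), while *Icam1* led with IFN-γ (1.58, adjusted p = 9.89e-07). With IL-4, 1 of 8 tested was called higher, *Socs3*, and 0 lower by either tool or at an unadjusted p under 0.05 (median -0.06), and DESeq2 called 2 higher. Leaving out 1 library gave 1 to 2 higher (2 without unstimulated library d) and 0 to 1 lower (1 without unstimulated library e).

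Of 10 transcription factors that act on cytokine genes, all tested, 3 were higher and 1 lower with *E. coli* (median -0.02), 6 and 2 with IFN-γ (0.62), 7 and 1 with both (0.85) and 3 and 1 with IL-4 (-0.15). *Nfkbiz*, whose product IκBζ is needed for *Il6* and *Il12b* transcription in macrophages, was at 22.5, 17.0 and 23.3 CPM in cells left unstimulated, 116, 114 and 97.1 CPM with *E. coli*, 41.2, 41.2 and 33.2 CPM with IFN-γ and 199, 167 and 174 CPM with both. No groups overlapped, and their order was that of *Il6*, with log2 fold changes of 2.35, 0.85 and 3.07 (adjusted p = 1.17e-09, 6.94e-04 and 7.56e-12). With IL-4, where *Il6* also rose, *Nfkbiz* was at -0.01 on the log2 scale (adjusted p = 0.979). *Il12b* did not share that order, with 2, 2 and 1 counts with *E. coli* and 30, 10 and 3 with IFN-γ. The part of *Nfkbiz* in the levels of either gene was not tested. *Irf1*, which overlaps *Gm17334* on the opposite strand, fell with *E. coli* (-0.76, adjusted p = 1.52e-05) and rose with IFN-γ (2.08, adjusted p = 2.47e-11), both (2.04, adjusted p = 1.26e-11) and IL-4 (0.97, adjusted p = 7.82e-04). *Irf8*, which with IRF1 drives *Il12b* in macrophages, was higher with IFN-γ (1.88, adjusted p = 3.32e-05) and both (1.93, adjusted p = 1.17e-05), the groups in which *Il12b* was high. With IL-4, where *Irf1* also rose, *Il12b* had 1, 0 and 0 counts. The part of these factors in the *Il12b* levels was not tested. *Cebpd* fell with both (-1.41, adjusted p = 2.17e-04), and *Cebpb* with IL-4 (-0.54, adjusted p = 0.0250), a call lost without unstimulated library d or any 1 of the IL-4 libraries and with all 6 unstimulated libraries as 1 group. The 3 factors higher with IL-4 became 1 without IL-4 library 1 or 2 or with that grouping, and the 2 lower with IFN-γ became 0 or 1 without any 1 of the 6 libraries compared. With *E. coli*, the 3 higher became 1 with that grouping. With IFN-γ *Cebpd* was called lower too (-0.68, adjusted p = 0.0322), but not by DESeq2, with no filter on low counts, with at least 10 counts in every library, with all 6 unstimulated libraries as 1 group, or without unstimulated library a, b or c or IFN-γ library 2 or 3.

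Of 4 genes that control cytokine mRNA, *Zc3h12a*, whose product Regnase cuts *Il6* and *Il12b* mRNA, rose with *E. coli* (1.56, adjusted p = 3.90e-07) and with both (1.65, adjusted p = 9.04e-08). *Zfp36*, which destabilizes AU-rich mRNA, fell with *E. coli* (-0.56, adjusted p = 0.00504), and *Arid5a*, which protects *Il6* mRNA, rose with both (0.45, adjusted p = 0.0145). Only 1 of the 4 was called higher with both, in place of 2, without unstimulated library a and with no filter on low counts. The median of the 4 was 0.16 with *E. coli*, 0.25 with IFN-γ, 0.32 with both and 0.26 with IL-4. With IFN-γ 0 were called by either tool or at an unadjusted p under 0.05, and with IL-4 0 were called by either tool and 1 was higher at an unadjusted p under 0.05. All 3 genes of the shedding of the IL-6 receptor, *Adam10*, *Adam17* and *Rhbdf2*, were higher with *E. coli* (median 0.64), and *Adam17* and *Rhbdf2* with IFN-γ (1.01) and both (1.16). *Rhbdf2*, which brings the protease ADAM17 to the cell surface, had the largest rises, 0.76, 1.02 and 1.24 (adjusted p = 0.0195, 0.00297 and 2.90e-04). The 3 called with *E. coli* became 1 without unstimulated library a or b or *E. coli* library 2, and with all 6 unstimulated libraries as 1 group. With IL-4 the median was -0.12, and 0 were called by either tool or at an unadjusted p under 0.05.

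Markers of eosinophils were checked against the label. Of 10 such genes *Ccr3* had the highest CPM in the 12-library set and *Alox15* in the 6-library set, with no account taken of gene length here or for the other markers, whereas *Prg3* stayed at or under 3 counts in all libraries of the 12-library set and the granule gene *Epx* at or under 4. *Ccr3* and *Alox15* reached 3576 and 3732 counts in the 12-library set, near its highest counts, which limits what their sums there can show. Summed levels of the 10 markers were 3802, 5101 and 3955 CPM in cells left unstimulated, 3496, 3094 and 3508 CPM with *E. coli*, 4047, 3581 and 4424 CPM with IFN-γ and 3254, 2873 and 3108 CPM with both. They were 5152, 5983 and 5268 CPM in d to f and 5008, 5211 and 5083 CPM with IL-4. Of 6 of them tested in the 12-library set, 1 was called higher and 2 lower with *E. coli*, 4 lower with IFN-γ, and 1 higher and 4 lower with both. With IL-4, 4 of 10 were called higher and 1 lower. *Siglecf*, the lectin used to identify eosinophils, was called lower with *E. coli* (-0.68), IFN-γ (-0.70) and both (-1.55; adjusted p = 2.49e-04, 1.77e-04 and 7.54e-09), and higher with IL-4 (0.39, adjusted p = 0.0383). *Ear6*, a ribonuclease gene whose reads may be shared with close copies, was higher with *E. coli* (1.29), both (0.52) and IL-4 (1.34) and lower with IFN-γ (-0.93), and *Ccr3* was lower with IL-4 (-0.72).

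Markers of other cell types were counted too, and whether their RNA came from other cells or from the eosinophils was not tested. The paper reports a purity check by flow cytometry before use and describes the contaminating cells as mostly lymphocytes. The 6 mast cell markers, of which *Tpsb2* was the most abundant, with *Mcpt4* in the 12-library set and *Fcer1a* in the 6-library set at or under 3 counts, summed to 9.59, 8.18 and 7.37 CPM in cells left unstimulated, 10.1, 6.64 and 34.3 CPM with *E. coli*, 30.0, 14.3 and 13.0 CPM with IFN-γ and 36.3, 71.8 and 66.2 CPM with both. They were highest with both stimuli, where *Cma1* (3.45, adjusted p = 2.62e-05) and *Tpsb2* (2.65, adjusted p = 1.18e-04) were called higher. In that set *Il6*, *Osm*, *Lif*, *Il12a*, *Il12b* and *Il27* had their highest means with both, as did *Il6st*, whose groups overlapped. *Il6ra*, *Il23a* and *Ebi3* did not. *Tpsb2* was also called higher with IFN-γ (1.51, adjusted p = 0.0327). The library with the highest sum of its group was *E. coli* library 3, IFN-γ library 1 and library 2 of both stimuli. *Il6* was highest of its group in *E. coli* library 3 and library 2 of both, but not in IFN-γ library 1 (45.6 against 45.8 CPM). *Il12b* was highest in IFN-γ library 1 and library 2 of both, and lowest in *E. coli* library 3 (1 count). *Lif* was highest in each of these libraries, at 13 counts or fewer. *Osm* was highest in none, and lowest in *E. coli* library 3 and IFN-γ library 1. In the 6-library set the sums were 8.57, 6.61 and 7.33 CPM without stimulus and 17.2, 7.94 and 20.6 CPM with IL-4. The part of mast cells in the levels of the cytokine genes was not tested.

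The 10 markers of macrophages and monocytes, led by *Ly6c2*, which was near the ceiling of counts in the 12-library set, summed to 2861, 3664 and 2972 CPM in cells left unstimulated, 2739.7, 2452 and 3627 CPM with *E. coli*, 4168, 3850.4 and 4419 CPM with IFN-γ and 4664, 4462 and 5108 CPM with both. A gene at the ceiling has a CPM that moves with the library total, so the sums were also taken without *Ly6c2*, a choice made after seeing the data. They were then 1355, 1129 and 1302 CPM in unstimulated libraries, 1177, 1152 and 1979.7 CPM with *E. coli*, 1909.7, 1849 and 1865 CPM with IFN-γ and 2112, 2397 and 2839 CPM with both. All libraries with IFN-γ lay above the unstimulated ones, while *E. coli* library 3 lay above those with IFN-γ alone. In the 6-library set the sums without *Ly6c2* were 2937, 3034 and 3727 CPM in unstimulated libraries and 2655, 2559.5 and 2914 CPM with IL-4, and those with it 25734, 26744 and 26007 CPM and 25922, 26816 and 25791 CPM. With IFN-γ 4 of 9 tested were called higher and 1 lower, with both 3 were higher, with *E. coli* 1 was higher and 1 lower, and with IL-4 2 of 10 were lower. *C1qb*, *Cd14* and *Mertk* were called higher with IFN-γ (1.04, 0.78 and 1.42) and with both (0.85, 1.71 and 1.62), and *Gata6*, a factor of peritoneal macrophages, lower with IFN-γ, with 8 counts against 36 (ratio 0.283 (95% interval 0.114 to 0.619), adjusted p = 0.0491). The part of these cells in the cytokine levels was not tested.

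Of the 7 dendritic cell markers, *Itgax* was the most abundant, and *Cd209a* in the 12-library set and *Clec9a* in the 6-library set were at or under 3 counts. Their sums were 301, 352 and 301 CPM in cells left unstimulated, 339, 309 and 277 CPM with *E. coli*, 313, 296 and 317 CPM with IFN-γ and 205, 182 and 216 CPM with both. *Itgax* and *Ccr7* were tested there. *Ccr7* was called lower with *E. coli* (-1.60, adjusted p = 0.00289), 1 of the pair was higher and 1 lower for the interaction, and with both stimuli *Itgax* was lower (-0.82, adjusted p = 2.72e-05) and *Ccr7* higher (0.87, adjusted p = 0.0224). The sums were 281, 475 and 305 CPM in d to f and 564, 609 and 633 CPM with IL-4, where 2 of 4 tested were called higher, *Xcr1* (1.34, adjusted p = 0.0420) and *Itgax* (0.77, adjusted p = 0.0276). The 5 B cell markers, led by *Ighm*, summed to 212, 191 and 116 CPM in cells left unstimulated, 38.9, 44.2 and 75.0 CPM with *E. coli*, 97.9, 60.1 and 57.9 CPM with IFN-γ and 114, 128 and 125 CPM with both, and to 24.3, 23.6 and 43.2 CPM in d to f and 63.0, 58.1 and 68.1 CPM with IL-4. Of the 5, all were called lower with *E. coli*, 4 with IFN-γ, and 3 of 4 tested were called higher with IL-4. All 5 were called higher for the interaction of IFN-γ and *E. coli* (median 2.68), the test in which *Osm* was called. For that interaction 4.62% of all genes were called in either direction. Their part in the results was not tested.

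The 6 neutrophil markers, led by *S100a8* in the 12-library set and *Cxcr2* in the 6-library set, with *Mpo* and *Elane* at or under 3 counts in the former, summed to 41.7, 35.2 and 44.6 CPM without stimulus and 156, 128 and 209.8 CPM with *E. coli*. They summed to 70.7, 66.7 and 78.7 CPM with IFN-γ, 70.4, 82.2 and 109.5 CPM with both, 18.8, 19.7 and 22.2 CPM in d to f and 41.3, 40.2 and 67.1 CPM with IL-4, higher with every stimulus. Of 3 tested, 2 were called higher with *E. coli*, 2 higher and 1 lower with IFN-γ and 2 higher and 1 lower with both, the lower one being *Cxcr2* (-1.76 and -0.73), which was higher with *E. coli* (1.73) and IL-4 (3.09). With IL-4, 1 of 4 tested was called higher and 0 lower (median 0.45). Their part in the results was not tested. Of 6 T and NK cell markers, *Cd3e*, *Cd4*, *Cd8a* and *Klrb1c* had 3 counts or fewer in every library and the sums did not exceed 8.48 CPM. All 6 mesothelial and stromal markers had 3 counts or fewer in every library of the 12-library set, and in the 6-library set their sums were 8.02, 6.28 and 6.58 CPM without stimulus and 7.38, 5.62 and 6.97 CPM with IL-4.

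RefSeq promoter windows, from 250 bases before to 50 after the start of a transcript (GRCm38.p6), were at hand for 7 of the 10 genes, *Il12a* with 2 windows, and were searched for the letters of 6 motifs. These were GGANNTTCC of NF-κB, found in 4.26% of all 32851 windows, GAAANNGAA of the interferon response element (8.56%), TTCNNNGAA of STAT sites (8.30%), TGANTCA of AP-1 (7.81%), TTGCNNAA of C/EBP (10.8%), each on both strands, and TATAAA on the gene's strand (8.32%). *Il6*, which rose with all 4 stimuli, held 3 of them, NF-κB letters from position -43 to -35 relative to the start, C/EBP letters from -128 to -121 and AP-1 letters from -249 to -243, with no overlap. *Lif* held AP-1 letters from -228 to -222, and both windows of *Il12a* held NF-κB letters, from -194 to -186 and from 19 to 27. The windows of *Il6ra*, *Il6st*, *Il12b* and *Ebi3* held none of the 6. A match describes the letters only, and the lack of one says only that they are not in this window. The windows of *Il6* (chr5:30012864-30013163, plus strand) and *Il12b* (chr11:44399813-44400112, plus strand), as a gene called with every stimulus and a gene that in the 12-library set passed the floor only where IFN-γ was given, are shown with motif letters in capitals.
Il6: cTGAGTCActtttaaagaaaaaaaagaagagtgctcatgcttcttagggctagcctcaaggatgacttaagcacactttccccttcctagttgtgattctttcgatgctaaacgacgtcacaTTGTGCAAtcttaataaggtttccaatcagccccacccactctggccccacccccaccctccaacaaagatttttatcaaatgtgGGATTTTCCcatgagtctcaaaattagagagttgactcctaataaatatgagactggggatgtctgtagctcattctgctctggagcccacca
Il12b: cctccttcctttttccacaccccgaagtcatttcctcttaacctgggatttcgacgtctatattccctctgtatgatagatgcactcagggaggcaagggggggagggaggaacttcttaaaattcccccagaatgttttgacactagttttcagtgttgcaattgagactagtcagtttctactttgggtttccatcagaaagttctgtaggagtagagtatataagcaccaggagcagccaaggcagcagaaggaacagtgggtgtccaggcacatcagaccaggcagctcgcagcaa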

How the data were processed

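The counts were used as deposited by the authors, 1 file per library, with reads or tags assigned to genes of GRCm38. The methods describe 3′ CEL-Seq2 libraries, and the submitters' processing notes name TopHat2 2.1.0, STAR 2.7.2a, fastp 0.20.1 and HTSeq 0.6.1 without saying which libraries used which aligner. Whether molecular identifiers were collapsed and whether counting used the strand are not given in the sources used here. HTSeq summary lines, 21.1 to 39.4% of a library in the 12-library set, named no gene and were left out. Gene symbols were matched for 98.3% and 99.7% of the identifiers of the sets.

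Within R 4.3.3, edgeR 4.0.16 was used (filterByExpr, TMM, quasi-likelihood test, Benjamini-Hochberg adjustment over all genes tested, adjusted p under 0.05). The 12 libraries, the 6 libraries and all 18 were fitted separately. Each standard error is the size of the log2 fold change divided by the square root of that test's F statistic. It was not estimated by the model itself and is unreliable for changes near no change. Alternatives were DESeq2 1.42.0 as a test and for size factors, no filter, at least 10 counts in every library, each library left out, only the compared libraries, all 6 unstimulated libraries as 1 group, replicate numbers as a block, and, chosen after seeing the data, counts converted for identifier collisions. Named genes were the 10 genes, the called list gene with the largest rise and fall per comparison with unstimulated cells (a mean of at least 5 counts), genes of a list mentioned for their role, and the 3 genes most correlated with each called gene. The genes and lists were chosen with earlier results of these data known. The lists were other ligands of the IL-6 family, receptor chains, JAK and STAT signalling, transcription factors, control of cytokine mRNA, shedding of the IL-6 receptor, STAT3 responders and cell type markers. The scripts were tested on simulated data. Protein sequences were not analysed here, and 1 gene that the rule names is not reported here.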

Additional observations from a re-analysis of the deposited data

Results flagged for a closer look

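*Osm* stood out because its response to *E. coli* differed with and without IFN-γ by a test of that difference. The log2 interaction was 0.79 (standard error 0.19), with an adjusted p of 0.0203 in edgeR's quasi-likelihood test and a range of 0.0153 to 0.0705 over the alternatives. The call was lost in 5 of the 12 fits that each left out 1 library, and the cause was not tested. All 5 B cell markers were called higher for the same interaction (median 2.68), beside 4.62% of all genes in either direction. The part of these markers in the *Osm* result was not tested.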

How the results depend on the processing

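Of 451 alternatives to called values of the 10 genes, 451 kept the direction and 423 kept the call. Among called log2 fold changes, those moved by over 1.5 times were *Il12b* with IFN-γ without unstimulated library c and, with all 6 unstimulated libraries as 1 group, *Il27* with IFN-γ (1.65), *Ebi3* with *E. coli* (1.57) and with both (1.48) and *Il6st* with IL-4 (1.52, adjusted p = 0.111, range over alternatives 0.00702 to 0.128). The cause was not tested for any of the changes below, and counts of the genes include *Il12b* where it was tested.

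With all 6 unstimulated libraries as 1 group, the log2 fold change with IFN-γ was -0.25 for *Il6ra* and 0.68 for *Ebi3*, and with IL-4 it was -0.74 for *Il27* and -3.16 for *Ebi3* (-0.12 as reported, not called in either). Then 2 of the genes were called higher with *E. coli* and 1 with IL-4. Over all genes, 633 were higher and 1078 lower with *E. coli* (1337 and 1649 as reported), 841 and 924 with IFN-γ (1541 and 1579), and 182 and 72 with IL-4 (630 and 459). A fit of all 18 libraries called 1016 higher and 876 lower with IL-4. With no filter, 7 of the genes were higher with both stimuli against IFN-γ, 4 were lower for IL-4 minus *E. coli*, and over all genes 316 were lower for the interaction (202 as reported) and 719 with IL-4. With the filter, 6.25% of all genes were higher with both stimuli against IFN-γ, and 28.1% were called in either direction for IL-4 minus *E. coli*. The shares of these comparisons without it are not given here. For IL-4 minus *E. coli*, 0 of the 10 genes were higher by DESeq2. With at least 10 counts in every library, edgeR called 0 higher for IL-4 minus *E. coli*, 0 lower for IL-4 minus IFN-γ and 3 lower for IL-4 minus both.

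Leaving out each library in turn gave log2 values that changed sign for genes not called. *Il6ra* ranged over -1.34 to 0.088 with both, -0.70 to 0.97 with both against *E. coli* and -1.14 to 0.54 for the interaction, which for *Il12b* was -2.37 to 1.26 and for *Ebi3* -0.012 to 0.22. *Ebi3* with IL-4 was -0.26 to 0.088, and IL-4 minus IFN-γ was -0.044 to 0.31 for *Ebi3* and -0.12 to 0.28 for *Osm*. Of the 10 genes, 0 to 1 were called higher for the interaction, 0 to 1 lower with both against IFN-γ, and 1 to 2 higher with IL-4. For IL-4 minus *E. coli*, 0 to 2 were higher and 1 to 4 lower, for IL-4 minus IFN-γ 0 to 1 higher and 0 to 1 lower, and for IL-4 minus both 0 to 1 higher. Over all genes, 138 to 355 were higher and 112 to 276 lower for the interaction, 374 to 547 and 336 to 575 with both against IFN-γ, and 311 to 812 and 171 to 582 with IL-4. For IL-4 minus *E. coli*, 1213 to 1653 of all genes were higher and 1089 to 1573 lower. These counts were 1052 to 1505 and 1236 to 1742 for IL-4 minus IFN-γ, and 1659 to 1999 and 1928 to 2249 for IL-4 minus both.

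With the numbers as a replicate block on the 6 libraries compared, *Il12b* was called with both against IFN-γ (1.26, adjusted p = 0.0255, range over alternatives 0.00801 to 0.383), 5 of the genes were called higher in place of 4, and 677 and 741 of all genes were higher and lower (618 and 591 as reported). Against *E. coli*, 3 of the genes were called with and without the block. Over all genes, 1685 were then higher and 1457 lower with the block (1725 and 1515 as reported). Same-numbered libraries had correlations of -0.045, 0.212 and 0.331 between IFN-γ and both, and 0.0706, 0.0986 and 0.163 between *E. coli* and both, and not every library correlated best with its own number. The numbers were therefore not taken to pair samples.

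Depth limited the low genes. *Lif*, *Il12a* and *Il23a* were untested in both sets with all libraries, and a difference within their counting intervals was not detectable at this depth. With each library left out in turn, 5 of the genes were called higher with *E. coli* in every fit (4 as reported), beside 945 to 1336 of all genes (1337 as reported). The gene added was none of those tested with all libraries. With 3 libraries per group, the calls of the *Osm* interaction, of *Il6st* with IL-4 and of several IL-4 responses were lost when a single library was left out. Of 714 alternatives for counts of the pathway lists, 72 moved by over 1.5 times.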
